A study of Mus musculus with 2 samples.

Results

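The strongest 10% of the distal open regions of mouse hematopoietic stem cells comprised 1120 of 11202 distal regions, out of 25141 open intervals in replicate 1. ATAC-seq, which maps DNA that the Tn5 transposase can reach, was run on hematopoietic stem cells from male C57BL/6J mice aged 5 to 6 weeks, untreated as far as the labels state, with 50000 cells per library. There were 2 libraries of this 1 kind, labelled biological replicates 1 and 2, with separate biosamples under the same donor identifier. Whether they came from separate animals is not stated. Of the replicate 1 intervals on the authors' thresholded list, whose peaks were kept by an irreproducible discovery rate that scores how steady their ranks are, 19727 overlapped an interval of replicate 2, and 11202 of these had their summit over 1 kb from every protein-coding transcription start site (TSS). Members were chosen among these by the replicate 1 signal value, so the replicate 1 signal is given as a description. Overlap with replicate 2 and distance from a protein-coding TSS set which regions entered both groups. Beyond that, replicate 2 signal, sequence and position were the measures not used in the choice. The remaining regions are called the other 90% below and numbered 10082.

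Open chromatin far from promoters holds enhancers, where transcription factors bind and act on genes at a distance, and insulator sites, where CTCF binds and cohesin-held loops end. ETS factors such as PU.1, FLI1 and ERG, and RUNX factors such as RUNX1, are regulators of blood stem cells, and each family binds a short core motif. NFY binds the CCAAT box, an element best known from promoters.

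The sequences below show what the motif counts rest on. They are windows of the summit base and 50 bp to either side, read from the plus strand of the mm10 (GRCm38.p6) genome of RefSeq, with the matched motif in capitals. For each of the insulator, ETS and RUNX families 3 windows are shown, those of the strongest members that hold a match and have a summit 31-mer found once in the genome. The count was of exact copies, so this does not leave out diverged repeats. The insulator windows were these, ranked 64, 161 and 200 by replicate 1 signal.
chrX:94865671-94865771: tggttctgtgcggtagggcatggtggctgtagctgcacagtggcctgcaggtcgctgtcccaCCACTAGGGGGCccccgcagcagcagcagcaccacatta
chr4:3967687-3967787: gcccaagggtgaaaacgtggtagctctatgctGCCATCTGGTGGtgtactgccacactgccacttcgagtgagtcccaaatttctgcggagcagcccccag
chr6:42257443-42257543: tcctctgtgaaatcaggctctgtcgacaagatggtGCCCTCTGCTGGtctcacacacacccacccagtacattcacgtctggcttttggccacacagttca
The ETS windows ranked 16, 24 and 30. Their matches, to CAGGAAG in the first and to the form CCGGAAG in the others, all lie on the minus strand, so that the capitals show the reverse complement. The first of them also holds an NFY match, which is not capitalised.
chr12:17881758-17881858: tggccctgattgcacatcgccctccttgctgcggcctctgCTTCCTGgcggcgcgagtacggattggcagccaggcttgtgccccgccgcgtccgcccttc
chr3:50628439-50628539: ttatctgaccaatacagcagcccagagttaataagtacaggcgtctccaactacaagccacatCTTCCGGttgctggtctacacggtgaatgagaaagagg
chr17:16951421-16951521: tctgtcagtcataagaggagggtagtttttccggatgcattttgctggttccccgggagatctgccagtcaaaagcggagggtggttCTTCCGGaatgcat
The RUNX windows ranked 2, 37 and 43, with TGTGGTT in the first, TGTGGTC in the second, and TGTGGTC on the minus strand in the last. The second of them also holds an ETS match, of the PU.1 form, which is not capitalised.
chrX:143483009-143483109: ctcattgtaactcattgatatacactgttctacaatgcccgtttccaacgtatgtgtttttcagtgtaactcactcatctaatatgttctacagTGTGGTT
chrX:117770443-117770543: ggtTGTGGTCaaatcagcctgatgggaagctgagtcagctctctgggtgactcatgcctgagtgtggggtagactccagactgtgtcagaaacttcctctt
chr10:3281120-3281220: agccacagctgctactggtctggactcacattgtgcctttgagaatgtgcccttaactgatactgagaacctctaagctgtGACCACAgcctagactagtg
A pair of windows with an NFY match, CCAATNNG on either strand, ranked 15 and 54, with the ETS window ranked 16 between them. They were added after the values were seen, because this motif differed between the groups.
chr13:62653213-62653313: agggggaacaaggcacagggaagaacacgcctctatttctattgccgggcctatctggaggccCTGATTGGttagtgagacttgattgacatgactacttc
chr5:109866628-109866728: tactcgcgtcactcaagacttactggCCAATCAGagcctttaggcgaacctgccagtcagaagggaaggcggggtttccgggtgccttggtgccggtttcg
The windows ranked 1 and 7 have a summit 31-mer that occurs more than once in the genome, and were added for the same reason. The first resembles mitochondrial DNA, and the second holds an NFY match, shown in capitals.
chr2:69355551-69355651: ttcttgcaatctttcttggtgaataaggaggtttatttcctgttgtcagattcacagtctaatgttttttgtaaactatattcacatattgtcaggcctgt
chr8:20424762-20424862: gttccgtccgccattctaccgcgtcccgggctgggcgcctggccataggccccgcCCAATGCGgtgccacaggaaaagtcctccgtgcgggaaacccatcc

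By replicate 1 signal, a value per peak from the authors' peak caller whose basis is not stated, members lay between 12.3 and 42.4 with a median of 13.6. The other 90% lay between 2.11 and 12.3 with a median of 8.46. The boundary was not a gap: 5 regions shared the threshold value of 12.3, of which 2 fell inside and 3 outside. The last 3 members had replicate 2 signals of 11.2, 10.4 and 11.3, and the first 3 regions outside had 14.6, 10.2 and 13.9, so replicate 2 did not separate them.

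In replicate 2, members had a median signal of 14.5 (lowest 8.38, highest 42.2) and the other 90% a median of 9.61 (3.09 to 19.5). The ranges overlapped between 8.38 and 19.5. Of the 1120 members, 710 also stood in the strongest 10% by replicate 2 signal, or 63.4% with a 95% Wilson interval of 60.5 to 66.2, where the background over all distal regions is 10%. The remaining 410 members had replicate 2 signals of 8.38 to 13.7. By rank, 954 members (85.2%) lay above the 80th percentile of replicate 2 and 12 lay below the 50th. Intervals here and below cover the counting of regions only. Regions are not replicates of a condition, and 2 libraries allow no test over samples.

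**Figure D1:**
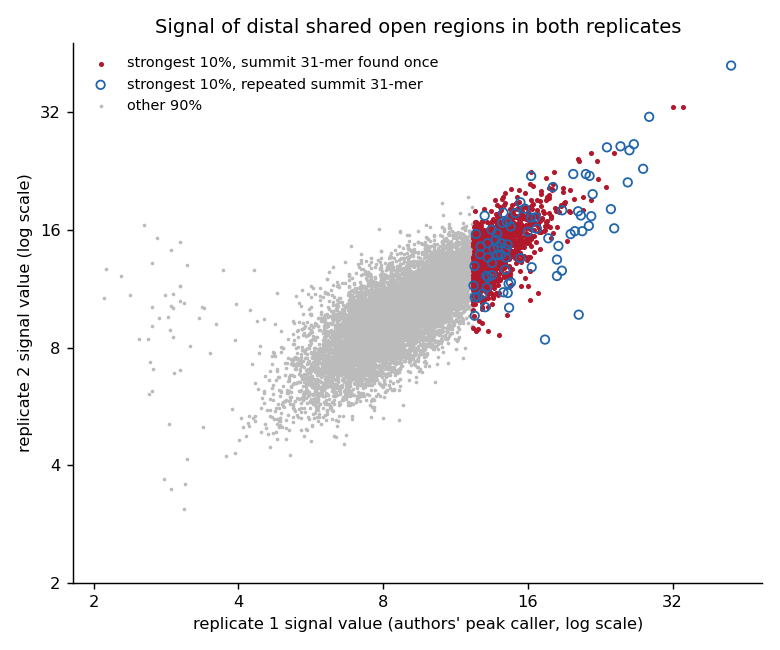
Replicate 1 signal (x axis) and replicate 2 signal (y axis) of each distal region, both on log scales, with the 1120 members in red, members with a repeated summit 31-mer as blue circles, and the other 90% in grey. Members lie from 8.38 to 42.2 in replicate 2 and overlap the other 90%, whose highest replicate 2 value is 19.5.

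Within the members, ranks in the replicates were related with a Spearman rho of 0.566 (n = 1120 regions), and within the other 90% with a rho of 0.698 (n = 10082). These are correlations across regions of the same pair of libraries, over a range of signal cut by the choice in both groups. The replicate 2 value was the higher one in 60.6% of members and in 78.9% of the other 90%. Members were wider, with a median of 524 bp against 444 bp, and 27.3% of them held more than 1 summit, against 23.97% of the other 90%. On the authors' conservative list for the series, made from both replicates, 1117 of the 1120 members and 10072 of the 10082 others were also present.

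The insulator motif was less frequent in the members. A match to the CTCF consensus within 50 bp of the summit was found in 31 members, or 2.77% (1.96 to 3.902), and in 562 of the other 90%, or 5.57% (5.14 to 6.04). The background over all distal regions was 5.29%. The difference was -2.81 percentage points (95% Newcombe interval -3.74 to -1.59). With the top 20% of regions it was -1.71. A relaxed form of the consensus gave 4.02% of members and 8.38% of the others. The consensus read backwards, a control of the same base content, matched 0 members and 0 others, which allows a share of up to 0.268% of members and 0.0298% of others at 3 counts. This control begins with CG, a pair that the consensus does not hold, so it is not a matched background. Windows centred 300 bp to either side of the summit held the consensus in 0.268% for members and 0.139% for others.

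The 31 members with an insulator match had a median width of 429 bp, against 526 bp in the 1089 members without one. Introns held 19.4% of those with a match and 37.7% of those without. In replicate 2, 13 of the 31 (41.9%) were in its strongest 10%, against 697 of 1089 (64.0%). In the other 90% the regions with an insulator match were narrow as well, at a median of 296 bp against 451 bp without one. None of the 50 strongest members held an insulator match, which at 3 counts allows a share of up to 6%.

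The ETS motif was common in both groups, and its difference did not exceed the counting interval. A match to CCGGAAG, to the form CAGGAAG or to the PU.1 form GNGGAAGT was found in 331 members (29.6%, 27.0 to 32.3) and in 2893 others (28.7%, 27.8 to 29.6), against a background of 28.8%. The difference was 0.86 points, with an interval of -1.89 to 3.73. By form, CCGGAAG was in 2.59% of members and 1.94% of others, CAGGAAG in 15.2% and 15.9%, and the PU.1 form in 13.6% and 12.9%. The same motifs read backwards matched 3.39% of members and 4.71% of others, a difference of -1.32 points (-2.33 to -0.0264). The interval of this control lay below 0, where that of the motifs themselves spanned 0. The ETS difference depended on the choice of regions: it was 3.24 points when members were ranked by replicate 2, 5.23 without replicate 1, 6.34 with the authors' less strict lists and -0.07 for regions over 2.5 kb from a TSS.

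The RUNX motif was more frequent in the members. A match to TGTGGTT, to the form TGCGGTT or to the form TGTGGTC was found in 227 members (20.3%, 18.02 to 22.7) and 1614 others (16.01%, 15.3 to 16.7), with a background of 16.4%. The difference was 4.26 points (1.89 to 6.81). It lay in TGTGGTT, found in 13.5% of members and 9.94% of others, while TGTGGTC was in 5.71% and 5.57% and TGCGGTT in 1.43% and 1.35%. Read backwards, the RUNX motifs matched 3.39% of members and 3.91% of others. ETS and RUNX motifs stood together in 67 members (5.98%) and in 456 others (4.52%). Windows with neither of them nor an insulator match made up 54.0% of members and 54.8% of the others.

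The NFY motif, 1 of the 30 motifs searched, was singled out after its values were seen. It was in 68 members (6.07%, 4.82 to 7.63) and 285 others (2.83%, 2.52 to 3.17), with a background of 3.15%, a difference of 3.24 points (1.94 to 4.83). Of the 68 members, 26 lay within 1 kb of the TSS of a noncoding gene or pseudogene. In members with such a TSS within 1 kb, 26 of 120 (21.7%) held the motif, against 41 of 691 (5.93%) in the other 90%. Without one, it was in 42 of 1000 members (4.2%) and 244 of 9391 others (2.60%). Among members whose summit 31-mer occurs once, 5.19% held it, and among those with a repeated one 17.7% did. The difference was 1.66 points when members were ranked by replicate 2, 1.53 with the less strict lists and 1.52 for regions over 1 kb from every annotated TSS.

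Across the 30 motifs, counted on both strands and with overlaps allowed, the interval of the difference lay above 0 for 3, below 0 for 5 and across 0 for 22. These intervals are not adjusted over the 30. Those above were RUNX TGTGGTT, NFY and the SP motif GGGCGG, bound by SP1 and its relatives, at 9.29% of members and 7.18% of others. Among others matched on GC content the SP share was 8.24%. Those below were both CTCF forms, the motif of GATA factors (spelled AGATAA) at 2.68% and 4.03%, the NFI motif TTGGCA at 5% and 6.66%, and KLF (CCACACCC) at 0.625% and 1.41%. The reversed ETS control GAAGGCC also had an interval below 0, at 0.804% of members and 1.74% of others. None of the other reversed controls did so. AP-1 (TGANTCA) was in 5.80% of members and 6.08% of others, the E-box CAGCTG in 10.2% of both, MEIS (TGACAG) in 9.73% and 9.80%, and C/EBP (TTGCNNAA) in 4.46% and 4.67%.

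**Figure D2:**
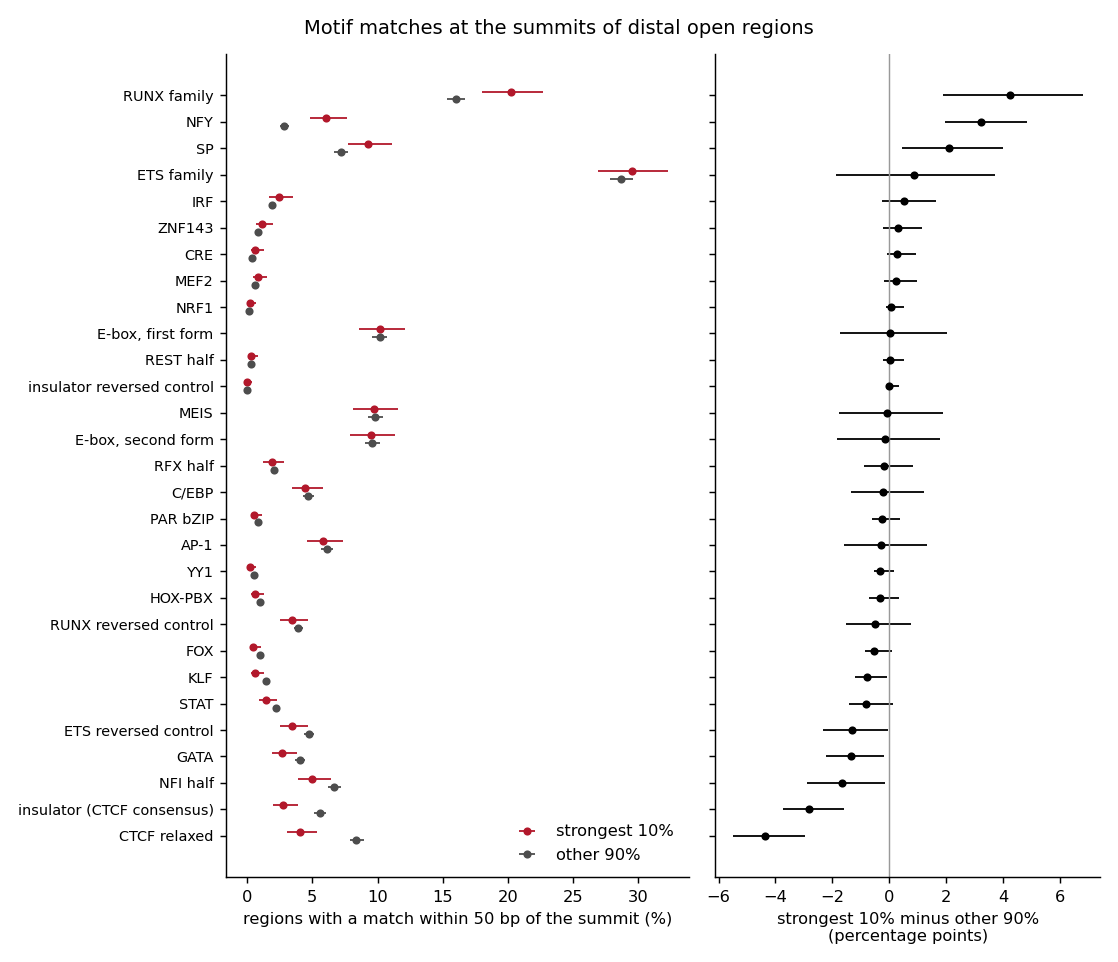
Left, share of regions (%) with a motif match within 50 bp of the summit in the strongest 10% (red) and the other 90% (grey), with 95% Wilson intervals; right, the difference in percentage points with its 95% Newcombe interval, sorted. The RUNX family stands highest at 4.26 points and the CTCF forms lowest, at -2.81 and -4.36 points.

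A count of all 8192 7-mers, with both strands joined and no list of factors, was made in the same windows. It is therefore not separate from the motif counts. Of the 15 with the largest differences, 11 were in a greater share of members. AACCACA, the reverse complement of TGTGGTT and so the same count, led with 13.5% of members and 9.94% of others. CCAATCA followed with 4.64% and 1.48%, and GATTGGC with 4.02% and 1.34%, both of which hold the CCAAT core on one of the strands. AGCCAAT, which holds it too, was in 4.11% and 1.82%. ACCACAG was in 12.4% and 9.52%, and AAACCAC in 9.375% and 7.11%. CCCGCCC was in 6.16% and 3.73%, and CCCCGCC in 5.45% and 3.34%. CACACAG was in 7.59% and 5.65%, TCCTGAA in 3.75% and 1.97%, and AGGAGGA in 7.5% and 5.73%. Among those in a smaller share of members, AGAGGGC was in 4.46% and 6.73%, CCACTAG in 2.68% and 4.65%, AGGAAGG in 5.89% and 8.17% and AGAGAGG in 2.77% and 4.64%.

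Motif matches were gathered at the summit in both groups for insulator, ETS and RUNX motifs. For RUNX, a 25 bp bin within 50 bp of the summit held a match in 5.58% of members on average, and a bin 200 to 250 bp away in 0.938%. In the other 90% these were 4.53% and 1.08%. For ETS they were 8.64% and 1.47% in members and 8.27% and 1.83% in the others. NFY was the exception: 1.81% near the summit and 0.781% away from it in members, but 0.774% and 0.650% in the others. Insulator matches lay a median of 23.5 bp from the summit in members and 16.5 bp in the others.

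**Figure D3:**
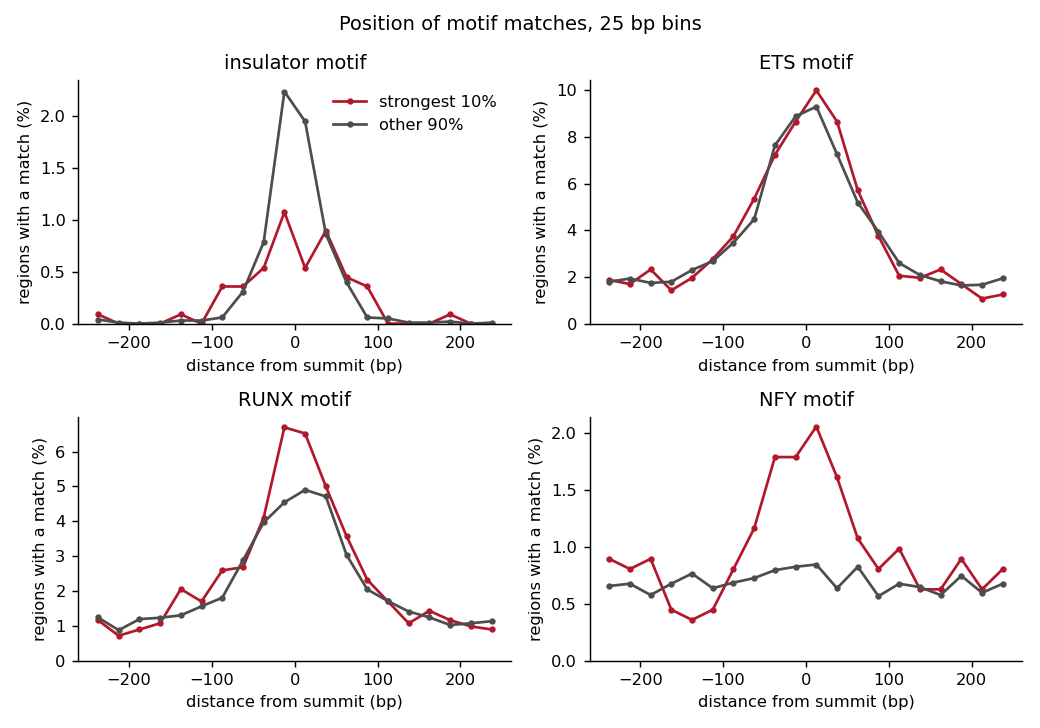
Share of regions (%) with a motif match in each 25 bp bin, by distance from the summit (bp), for 4 motifs, in the strongest 10% (red) and the other 90% (grey). The NFY curve of the other 90% is nearly flat, at 0.774% near the summit and 0.650% away from it, while that of the strongest 10% has its peak there.

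The insulator, RUNX and NFY shares were also followed across bins of signal, by the ranks of either replicate. Ranked by replicate 1, the insulator share was 2.77% in the first bin of 10%, 5.09% in the second and 4.99% in the last. Ranked by replicate 2, it was 2.59%, 4.46% and 4.01%. The RUNX share was 20.3% in the first bin and 13.99% in the last by replicate 1, and 20.5% and 13.5% by replicate 2. The NFY share was 6.07% and 3.84% in the first and second bins by replicate 1, and 4.64% and 4.38% by replicate 2.

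**Figure D4:**
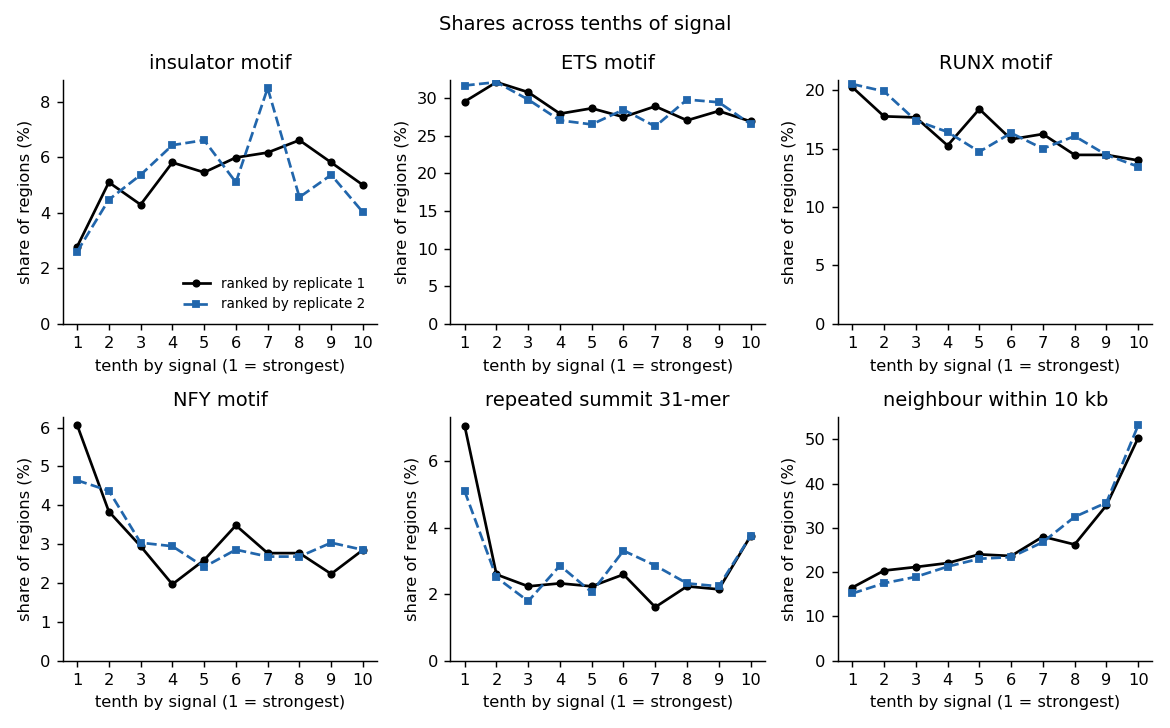
Share of regions (%) with each of 6 features in bins of 10% of the distal regions by signal, 1 being the strongest, ranked by replicate 1 (black) or replicate 2 (blue, dashed). The share with a neighbour within 10 kb is 16.5% in the first bin and 50.4% in the last by replicate 1, and a repeated summit 31-mer is most frequent in the first, at 7.05%.

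Base content was alike at the centre and differed at the high end. The median GC content of the window was 53.5% in members and in the other 90%. Above the median of the other 90% lay 533 members (47.6%) and 4628 others (45.9%), a difference of 1.69 points (-1.38 to 4.77). Windows over 65% GC made up 8.75% of members (7.23 to 10.5) and 5.66% of the others (5.23 to 6.13), while windows under 40% made up 2.77% and 2.62%. Members held a mean of 2.44 CpG dinucleotides per window and the others 2.23.

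Repeated sequence was more frequent among members and was concentrated in the strongest of them. The 31-mer at the summit occurred more than once in the genome in 79 members (7.05%, 5.70 to 8.70) and in 243 others (2.41%, 2.13 to 2.73), with a background of 2.87%. Of the 79 members, 49 had exactly 2 copies and 2 had over 10, with a highest count of 158. A single 31-mer was shared by 2 members. Copies were exact and were counted over the nuclear chromosomes, unplaced sequence and the mitochondrial chromosome. The difference of 4.64 points (3.25 to 6.32) was 2.46 when members were ranked by replicate 2, 1.92 without replicate 1 and 2.43 with the top 20% in place of the top 10%. Windows more than 50% soft-masked in the reference, as interspersed and simple repeats are, were 2.95% of members and 2.15% of the others, with a difference of 0.794 points (-0.0993 to 1.99). Reads from sequence with several copies can be placed at any of them, and how the authors treated such reads is not given in the sources used here.

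Windows resembling mitochondrial DNA, by a blastn match at an e-value of 1e-05 or less, were 13 of the members (1.16%, 0.680 to 1.98) and 8 of the others (0.0793%, 0.0402 to 0.157). The 13 had replicate 1 signals of 12.4 to 42.4 with a median of 19.5 and replicate 2 signals of 12.9 to 42.2 with a median of 20. Their median GC content was 38.6%, and 8 of them had a repeated summit 31-mer. The 31-mer count includes the mitochondrial chromosome, so such a window can count as repeated through it. Mitochondrial DNA has no nucleosomes and is readily cut in ATAC-seq, and its fragments copied into nuclear chromosomes keep its sequence. The part of mitochondrial reads in these values was not tested.

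The 50 strongest members, with replicate 1 signals of 18.5 to 42.4, differed in makeup from the lower ranks. A repeated summit 31-mer was found in 25 (50%), a mitochondria-like window in 8 (16%), an NFY motif in 8 (16%) and a noncoding or pseudogene TSS within 1 kb in 11 (22%). These features overlap: the regions ranked 1, 4, 6 and 9 had both a repeated 31-mer and a mitochondria-like window. ETS motifs were in 7 (14%) and RUNX motifs in 3 (6%). Among ranks 601 to 1120 the shares were 3.27% for repeated 31-mers, 4.81% for NFY, 31.2% for ETS and 19.6% for RUNX. The insulator share was 3.08% there. These bands were set after the values were seen.

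**Figure D5:**
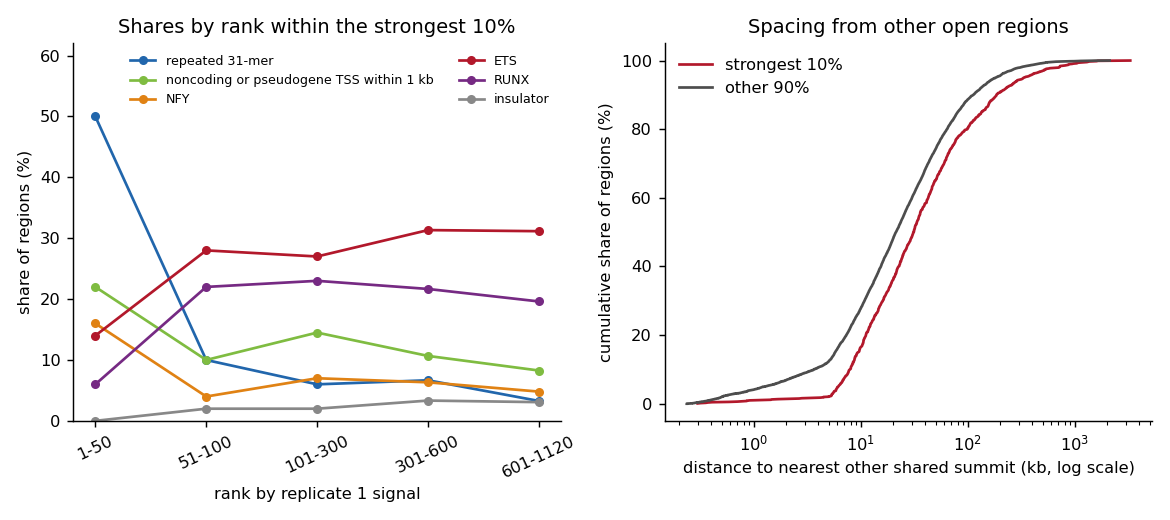
Left, share of members (%) with each feature in bands of rank by replicate 1 signal, of 50, 50, 200, 300 and 520 regions; right, cumulative share (%) of regions by distance to the nearest other shared summit (kb, log scale) in the strongest 10% (red) and the other 90% (grey). Repeated 31-mers make up 50% of the first band and 10% of the next, and the strongest 10% has fewer close neighbours, 1.96% against 12.3% within 5 kb.

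The highest region of all, chr2:69355473-69355729, had signals of 42.4 in replicate 1 and 42.2 in replicate 2. It lay 13.0 kb from the TSS of Abcb11, which encodes the bile salt export pump, was mitochondria-like and had a summit 31-mer with 2 copies. The second, chrX:143482940-143483175, had 33.6 and 33.0 and lay 35.5 kb from Pak3, a kinase gene. Its exact summit 31-mer was found once, and 19.8% of its window was soft-masked. A RUNX match lay at the edge of the window. Whether this window belongs to a diverged repeat was not tested. The regions ranked 3 and 4, chr6:9889880-9890223 and chr5:60042656-60043138, were mitochondria-like, as were those ranked 6 and 9. All 15 strongest lay outside the exons of protein-coding genes, 2 of them in introns.
The regions ranked 7, 8 and 13 lay on chromosome 8 between 20122116 and 20550550, each with a summit 31-mer of 4 copies, an NFY match and a GC content of 66.3% to 68.3%. Their signals were 26.03, 25.8 and 23.4 in replicate 1 and 25.6, 21.2 and 26.1 in replicate 2. The first of them had its summit 2 bp from the TSS of 2610005L07Rik and the second 110 bp from that of Gm21769, neither of which the annotation classes as protein-coding. Regions 11 and 15, nearest among protein-coding genes to Zfp960 and 6720489N17Rik, had summits found once, with 24.2 and 25.2 for region 11 and 22.4 and 21.6 for region 15 in replicates 1 and 2. Regions 5, 10, 12 and 14 were nearest to Rtl10, Plxdc2, Fam107a and Tram1. Their signals were 27.8, 24.2, 23.8 and 23.3 in replicate 1 and 22.95, 16.2, 18.1 and 20.6 in replicate 2. Of these, regions 5, 10 and 12 had a repeated summit 31-mer and region 14 did not.

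In position, members lay further from protein-coding genes and from other open regions. Summits fell in introns of protein-coding genes in 417 members (37.2%, 34.4 to 40.1) and 4568 others (45.3%, 44.3 to 46.3), and between protein-coding genes in 60% and 50.9%. Exons held 2.77% and 3.80%. The intron difference of -8.08 points (-11.0 to -5.05) was -4.96 with the top 20%. The nearest protein-coding TSS was a median of 34.99 kb away in members (quartiles 14.9 and 96.7) and 24.5 kb in the others (9.50 and 63.9). Over 100 kb away lay 24.2% of members and 16.04% of the others.

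Members had fewer close neighbours. Another shared open region, promoters included, lay within 10 kb of 185 members (16.5%, 14.5 to 18.8) and 2812 others (27.9%, 27.0 to 28.8). Within 5 kb it was 22 members (1.96%, 1.30 to 2.96) and 1245 others (12.3%, 11.7 to 13.0). The median distance was 31.1 kb in members and 21.2 kb in the others. Across bins of 10% by replicate 1 signal, the share within 10 kb was 16.5% in the first and 50.4% in the last. By replicate 2 it was 15.2% and 53.2%. Both rankings use a signal value whose basis is not stated, and whether that value itself depends on nearby regions was not tested.

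Though every member lay over 1 kb from protein-coding TSSs, 120 (10.7%, 9.04 to 12.7) lay within 1 kb of the TSS of a noncoding gene or pseudogene, against 691 others (6.85%, 6.38 to 7.36). The nearest such gene was a long noncoding RNA gene for 71 members (59.2%) and 418 others (60.5%), and a pseudogene for 30 (25%) and 114 (16.5%). With further transcripts of protein-coding genes counted, 13.2% of members and 10.1% of others lay within 1 kb of any annotated TSS.

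By chromosome, the members' share was above that of the others on chromosome 6 (8.57% against 6.11%) and on X (3.04% against 1.67%). It was below on chromosome 11 (3.13% against 5.42%), 16 (2.68% against 3.91%) and 19 (1.07% against 2.37%). For the other 16 chromosomes the interval of the difference included 0.

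Of 21829 protein-coding genes, 1209 (5.54%) had a member within 50 kb of a TSS: 1146 had 1, 61 had 2, and 2 had 3. No gene was within 50 kb for 457 members (40.8%) and 3096 others (30.7%). The genes with 3 were Mab21l1, a gene of eye development, on chromosome 3, and Vmn2r27, a vomeronasal receptor gene, on chromosome 6. The 3 regions near Mab21l1 had signals of 13.6, 13.5 and 13.5 in replicate 1 and 12.5, 15.7 and 14.98 in replicate 2. They lay 34.6, 38.4 and 46.5 kb from its TSS, in introns. An intron here is that of any protein-coding gene, and was not tied to Mab21l1. Those near Vmn2r27 had 14.2, 13.7 and 12.6 in replicate 1 and 15.9, 15.2 and 13.4 in replicate 2. One of these was nearest to Cd163, the haemoglobin scavenger receptor gene of macrophages, which had 2 members. The 61 genes with 2 members are tied, and the other ones that come first among them in alphabetical order are 4922502D21Rik, Akap7, Bicd1, Bicdl2, Ces2c, Chchd7 and Chd9.

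Of 20 transcription factor genes of blood stem cells, 3 had a member within 50 kb (15%, 5.24 to 36.0), against 5.54% of all genes. A distal region of any strength lay within 50 kb of 15 of the 20 (75%), against 43.9% of all genes, and of 9 of 12 endothelial and stromal genes (75%) and 10 of 15 liver, brain and muscle genes (66.7%). Spi1, which encodes PU.1, had chr2:91042402-91043084, an intronic region 39.5 kb from its TSS with a RUNX match and signals of 13.2 in replicate 1 and 15.3 in replicate 2. Gfi1, a repressor that restrains stem cell division, had chr5:107759011-107759660, 33.3 kb away, with a RUNX match and signals of 13.6 and 11.5. Mecom, a regulator of stem cell self-renewal, had chr3:30206033-30206481, 31.9 kb away, with an ETS match and signals of 12.3 and 10.5, and 7 distal regions in all. Each of the 3 lay inside an intron of a protein-coding gene, and the nearest TSS to the Spi1 one was that of Rapsn. Their ranks by replicate 1 signal were 676, 563 and 1093 in this order.

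The counts of the other lists are to be read against the 5.54% of all genes with a member. Of the 16 surface and niche genes 1 had a member (6.25%), near that share: Eng, which encodes endoglin, with signals of 13.5 and 13.9. Of 15 megakaryocyte genes 4 had one (26.7%, 10.9 to 52.0). A distal region of any strength lay within 50 kb of 12 of these 15 genes (80%), against 43.9% of all genes. Pf4 and Ppbp, neighbouring genes of platelet chemokines, shared 1 member with signals of 13.9 and 14.6 and a RUNX match, so the 4 genes rest on 3 regions. That of Vwf, the von Willebrand factor gene, had 14.4 and 13.1 with an NFY match, and that of Clec1b, a platelet receptor gene, had 14.9 and 16.04 with an ETS match. Of 13 erythroid genes 1 had a member (7.69%), Epb42, at 12.6 and 12.9, and of 16 insulator and cohesin genes 1 did (6.25%), Yy1, both near the share over all genes. None of the 46 granulocyte, monocyte, B, T and NK cell genes had one, and none of the 27 endothelial, stromal, liver, brain and muscle genes. At 3 counts these allow shares of up to 6.52% and 11.1%, above the 5.54% of all genes, so neither count can be told from the background. A distal region lay near 30 of the 46 and 19 of the 27, against 43.9% of all genes. By list this was 72.2% of granulocyte and monocyte, 53.8% of B cell and 66.7% of T and NK cell genes. It was 75% of endothelial and stromal genes and 66.7% of liver, brain and muscle genes.
As a check of the label, 9 of the 20 stem cell factor genes and 7 of the 16 surface and niche genes had a shared open region at a promoter (45% and 43.8%), against 40.7% of all genes, so these shares were near the background. Of megakaryocyte genes 6 of 15 did (40%) and of erythroid genes 3 of 13 (23.1%). Among the 46 genes of mature granulocytes, monocytes and lymphocytes 8 did, and among the 27 endothelial, stromal, liver, brain and muscle genes 5 did. Gata2, Tal1, Erg and Procr, all genes of stem cells, were among those without one.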

How the data were processed

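ATAC-seq of 2 libraries of mouse hematopoietic stem cells was analysed from peak lists in the mm10 assembly. The authors deposited a signal value per peak, together with −log10 p-values and q-values. Per the deposited file notes, each thresholded list derives from 1 library, and the conservative list from both. Not given in the sources used here are the aligner, the caller, the shift of read ends and what was done with mitochondrial reads. No counts were used, so the depth is unknown. Replicate 1 is labelled with a pair of sequencing instruments and replicate 2 with none, so their effects cannot be told apart.

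The replicate 1 list had 34499 lines and the replicate 2 list 34174. Each interval was taken once, at its highest signal, and called shared at an overlap of 1 bp. Genes came from GENCODE M21. Distal summits lay over 1 kb from the TSS of every protein-coding transcript, and the top 10% by replicate 1 signal were members. Motifs, 30 with 7 reversed controls, were matched on both strands of windows reaching 50 bp to either side of the summit. Exact copies of summit 31-mers were counted over the genome, with unplaced sequence and the mitochondrial chromosome included. The program blastn 2.17.0 compared windows with mitochondrial DNA at an e-value of 1e-05. Python 3.11.15, numpy 2.4.6 and pandas 2.3.3 were used, and the functions were tested on simulated data.

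Shares have 95% Wilson intervals and differences Newcombe intervals, for counting of regions only. No test was run, since 2 libraries allow none over samples. Members, lists and motifs were chosen with earlier results of these data known. Named were the 15 strongest members and, by their signals only, 3 regions on each side of the threshold. Also named were the 3 strongest motif-holding members per family, with a summit 31-mer found once. Regions on chromosome 18 are not printed, which left none of these motif-holding members out. The genes named were the 10 with the most members within 50 kb (ties taken alphabetically) and each stem cell factor gene with a member. The 15 most different 7-mers were named as well. Other list genes with a member, NFY and the rank bands were named after their values were seen. Each of 14 alternatives was tried. The result for 1 gene list is not reported here.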

Additional observations from a re-analysis of the deposited data

How the results depend on the processing

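Of 124 alternative values, 104 stayed within the counting interval of the value reported, 20 lay outside it and 0 turned the called direction. Of the 104, 6 equal the reported value by construction (the share in replicate 2 with the ranking swapped, GC matching or wider windows, and the repeat, intron and neighbour differences with wider windows), which leaves 98. The insulator, RUNX and neighbour differences stayed within theirs under each of the 14 alternatives, at -3.5 to -1.71, 3.23 to 5.07 and -13.0 to -10.4 percentage points. The share of members in the strongest 10% of replicate 2 was 67 with the top 20%, 79.8 when ranked by the mean percentile of both replicates (which uses replicate 2) and 68.8 with the less strict lists. With the less strict lists the differences were 6.34 for ETS, 7.11 for GC above the median, 1.97 for repeated 31-mers, -4.83 for introns and 1.53 for NFY. Ranked by replicate 2 they were -2.78 for GC, 2.46 for repeated 31-mers and 1.66 for NFY. Repeated 31-mers gave 8.06 with the top 5%, 2.43 with the top 20%, 3.06 by mean percentile and, by construction, 0 without repeated summits. Introns gave -4.96 with the top 20%, GC gave -1.57 in windows reaching 100 bp to either side of the summit, and NFY gave 1.52 for regions over 1 kb from every annotated TSS. The cause of these moves was not tested, apart from that of the 0. The ETS and GC differences, whose intervals include 0, ranged over the alternatives with no fixed sign, at -0.07 to 6.34 and -2.78 to 7.11. With 1 replicate left out at a time, so that no overlap was asked, the lowest and highest differences were 2.94 and 5.23 for ETS, 1.92 and 3.31 for repeated 31-mers, -3.11 and -2.69 for the insulator motif, 3.92 and 4.11 for RUNX, 2.48 and 2.69 for NFY, 0.5 and 1.81 for GC, -6.67 and -5.48 for introns and -10.9 and -10.6 for neighbours. The share in both strongest groups needs both replicates and has no such value.

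No paired analysis was possible because all samples belong to 1 group. The NFY alternatives were chosen after seeing the data. Depth is unknown, so its limit on any value cannot be given.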
